A study of Mus musculus with 90 samples.

Results

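H3K4me3 regions of mouse embryonic stem cells that were occupied by Mll2 but carried no listed Menin peak are described here. They were chosen from peak lists. Overlapping autosomal peaks of the 2 H3K4me3 libraries were merged, and a region was kept if it held peaks of both libraries, was at most 5000 bp wide, and overlapped an Mll2 peak of serum 9172 and one of serum 9175 but no Menin peak, with 1 bp counting as overlap. The rule found 351 regions among 18336 autosomal H3K4me3 regions of both libraries. Another 14286 regions met every condition except that they did hold a Menin peak, so regions without Menin made up 2.4% of the 14637 regions with Mll2 of both sera (exact 95% interval 2.16 to 2.66%). Among all 17999 H3K4me3 regions up to the width limit, Mll2 or not, 10.8% held no Menin peak. The count depended on the lists and their thresholds. It was 1157 (7.90%) when only Menin peaks with a score of at least 100 were used and 131 (1.01%) when only such Mll2 peaks were, where the score is minus 10 times the log10 of the peak caller's p. It was 575 with serum 9172 alone, 573 with serum 9175 alone, 586 with H3K4me3 replicate 3 left out and 399 with replicate 1 left out.

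Mll2 (also called Kmt2b) is a methyltransferase that places methyl groups on lysine 4 of histone H3, working inside a COMPASS-type complex, and it recognises CpG-rich DNA through a CXXC zinc finger. Menin is a subunit shared by the Mll1 and Mll2 complexes, which bind it through their amino-terminal ends, and it is absent from the Set1 complexes that also trimethylate this lysine. Trimethylation of lysine 4 (H3K4me3) marks active promoters and, in embryonic stem cells, many promoters of developmental genes that are kept poised.

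The series holds 90 samples of several assays, among them Mll2 knockout and mutant cells, rescue lines, enhancer deletions and knockdowns of Mll2 or Menin, and 5 libraries with peak lists are used here. All 5 libraries came from V6.5 mouse embryonic stem cells grown with serum and LIF, with the wild-type genotype, and from chromatin crosslinked with paraformaldehyde and sheared by sonication. Menin was immunoprecipitated with a commercial antibody and Mll2 with 2 homemade sera (CT1, serum 9172, and CT2, serum 9175), in cells for which the labels give no hairpin, while H3K4me3 (replicates 1 and 3) was immunoprecipitated from cells infected with a lentiviral hairpin against GFP, the control of the study's knockdowns. Menin and each Mll2 serum had 1 library, and occupancy and mark were measured in different preparations of cells. Kept tags ranged from 11550409 for Menin to 21936546 for H3K4me3 replicate 1. Regions are not replicates of a condition, so no test between kinds of region was made, and the intervals on shares cover counting error only. An absent Menin peak means that none was called at this depth, since the weakest listed Menin peaks had 11 tags, and less binding cannot be told apart here from no binding. Fold enrichment below is the authors' value, ChIP tags over the background estimated by the peak caller, and tags per kb are the deposited tags of the peaks in a region divided by the width of those peaks.

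The rule could be satisfied by 2 sera that bind different parts of a region, or by an Mll2 peak that reaches a Menin peak beyond the region's edge, and both were rare. The peaks of the 2 sera overlapped each other in 347 of the 351 regions without Menin (98.9%, against 99.8% of regions with Menin). From summit to summit the sera were 94 bp from each other in the median, with quartiles of 34.5 and 195.5 bp. An Mll2 peak of a region overlapped a Menin peak lying outside that region in 2 cases with serum 9172 and in 2 with serum 9175. Both Mll2 summits fell inside the H3K4me3 region in 333 regions (94.9%), against 99.1% of regions with Menin. Called Menin thus lay outside nearly all of the Mll2 peaks. That was largely set by the rule, which keeps Menin peaks out of the H3K4me3 regions, where most Mll2 summits lay.

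Regions without Menin lay at the low end of Mll2 occupancy. Their median was 47.3 tags per kb in serum 9172 (quartiles 41.6 and 55.4) and 35.9 in serum 9175 (32.0 and 40.9), against 74.6 (56.7 and 96.8) and 58.7 (45.5 and 75.9) in regions with Menin. Of the regions without Menin, 37.0% had an Mll2 score of at least 100 in both sera (130 regions), against 88.2% of all regions with both sera. In 106 regions (30.2%) the score was under 100 in both, against 2.90% of regions with Menin.

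When all 14637 regions with both sera were ranked by serum 9175 tags per kb, 13.1% of the lowest decile lacked Menin (192 of 1464, interval 11.4 to 15.0%) and 5.53% of the next. The share was 0.546% in decile 5, and none of the 1464 regions of the highest decile lacked Menin, which allows a share of up to 0.252%. Ranking by serum 9172 gave 10.5% in the lowest decile and 1 region, 0.0683%, in the highest. The share without Menin was also graded by H3K4me3, from 7.31% in the lowest to 0.137% in the highest decile of replicate 1 fold, and by width, from 12.0% of the narrowest to 0.615% of the widest decile. These regions thus came mainly from the low end of each of these scales. The quartile ranges of Mll2 tags per kb in both sera and of width did not overlap those of regions with Menin, and those of H3K4me3 fold overlapped slightly, at 11.6 to 29.1 without and 26.2 to 63.7 with Menin in replicate 1.

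**Figure D1:**
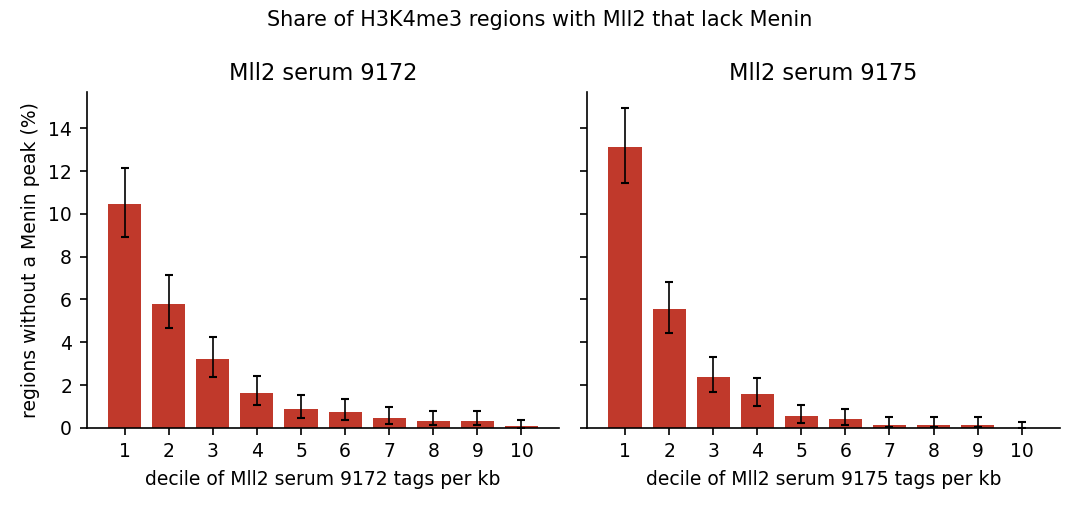
Share of H3K4me3 regions with Mll2 of both sera that hold no Menin peak (%), by decile of Mll2 tags per kb in serum 9172 (left) and serum 9175 (right), with exact 95% intervals as bars. The share is highest in the lowest decile (10.5% and 13.1%) and near 0 in the highest.

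**Figure D2:**
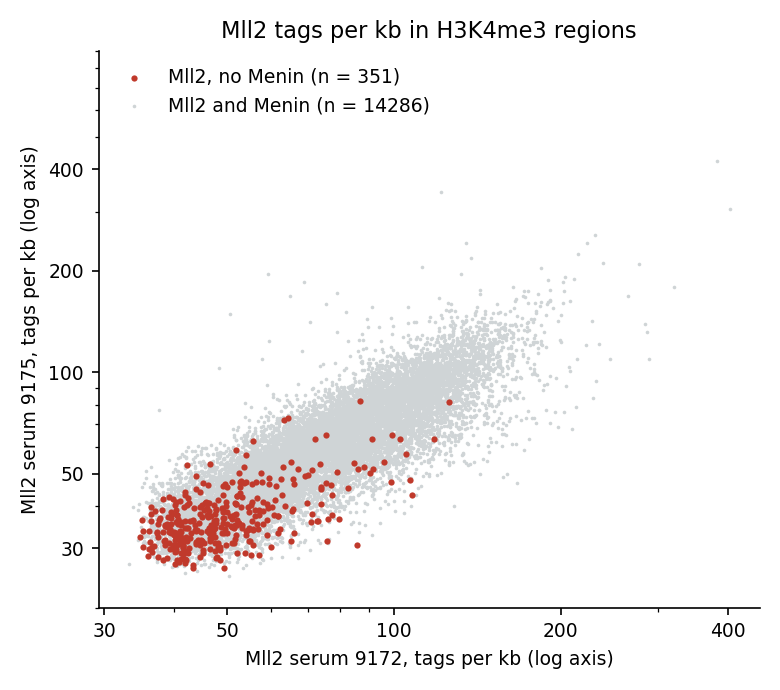
Mll2 tags per kb of each H3K4me3 region in serum 9172 (horizontal) and serum 9175 (vertical), both on log axes, with one point per region. The 351 regions without Menin lie in the lower left part of the cloud of 14286 regions with Menin, with few of them at higher values of both sera.

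A separate question was whether H3K4me3 differed once Mll2 tags per kb were alike. Regions were first grouped into 5 strata by serum 9175 tags per kb, with boundaries that split the regions without Menin evenly. In the lowest stratum, up to 31.3 tags per kb, H3K4me3 replicate 1 had a median fold of 16.1 in 70 regions without Menin (quartiles 9.46 and 22.2) and 15.0 in 350 regions with Menin (10.1 and 24.9). In the middle stratum the medians were 16.96 without Menin and 16.95 with Menin. Replicate 3 gave medians of 10.4 without and 11.2 with Menin in the lowest stratum, and 11.6 without and 13.2 with Menin in the middle one. In the first 4 strata the ratio of medians, regions without Menin over regions with Menin, ran from 0.840 to 1.15 in replicate 1 and from 0.881 to 1.02 in replicate 3. Quartile ranges overlapped in each of these strata, in both libraries.

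The highest stratum stood apart. Its 71 regions without Menin had a median replicate 1 fold of 25.8 (17.4 and 44.1), against 52.5 (36.6 and 67.4) in 11369 regions with Menin, and replicate 3 gave 20.5 without Menin (12.1 and 36.4) against 52.2 (31.3 and 71.9) with Menin, so that the quartile ranges still overlapped. Mll2 was not alike inside this open-ended stratum, since the median serum 9175 level was 48.3 tags per kb without Menin and 65.1 with it. Averaged over the 5 strata on a log scale, H3K4me3 fold in regions without Menin was 0.873 times that in regions with Menin in replicate 1 and 0.800 times in replicate 3, as a description that includes the highest stratum, where Mll2 differed.

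**Figure D3:**
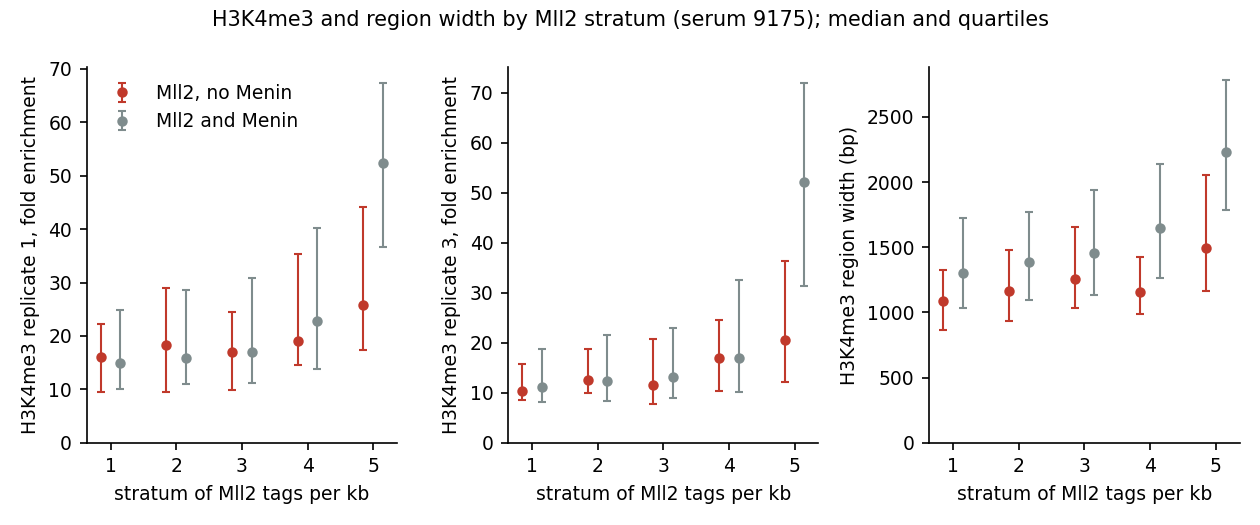
H3K4me3 fold enrichment in replicate 1 (left), in replicate 3 (middle) and width of the H3K4me3 region in bp (right) over 5 strata of serum 9175 Mll2 tags per kb; points are medians and bars reach from the lower to the upper quartile, regions without Menin at the left of each pair. The H3K4me3 medians lie close together in strata 1 to 4 and apart in stratum 5, and regions without Menin have the lower median width in each stratum.

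Each region without Menin was then set against the regions with Menin whose tags per kb lay within 10% of its own in both sera, of which there were between 3 and 1100, with a median of 409. Against these regions of like Mll2, the fold of a region without Menin was a median of 0.946 times theirs in replicate 1 (quartiles 0.583 and 1.44) and 0.936 times in replicate 3 (0.625 and 1.44). In replicate 1, 190 of 351 regions (54.1%) lay below the median of their like regions, and in replicate 3 202 (57.5%). In strata 1, 2 and 4 the median ratios were 1.02, 1.09 and 1.09 in replicate 1 and 0.952, 1.02 and 1.03 in replicate 3. In stratum 3 they were 0.846 and 0.845, and 42 and 44 of its 71 regions lay below their like regions. In the highest stratum they were 0.702 and 0.672, and 51 and 52 of 71 regions did. With Mll2 tags per kb matched in both sera, H3K4me3 without Menin was thus near that with Menin in strata 1, 2 and 4. It was farthest below in the highest stratum. Other measures of Mll2 were not matched. Mll2 scores without Menin were a median of 0.870 times those of like regions in serum 9175 and 0.893 times in serum 9172. Mll2 tags were 0.868 and 0.888 times, and Mll2 folds 0.971 and 1 times. The part of these differences in H3K4me3 was not tested. The ratios of strata 3 and 4 differed between the ways of matching Mll2, more so in replicate 1. In the strata by serum 9175 alone, the ratios of medians in stratum 3 were 1.00 in replicate 1 and 0.881 in replicate 3. In stratum 4 they were 0.840 and 0.999.

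Width was lower in regions without Menin. Regions without Menin had a median width of 1215 bp (quartiles 954 and 1590.5), against 1438 bp at regions of like Mll2, and 251 of 351 (71.5%) were narrower than the median of their like regions, by a median of 253 bp. The difference averaged over strata was -371.7 bp (without minus with Menin). Mll2 peaks were narrower too, at 797 bp without Menin and 889 bp in like regions in serum 9175, and at 638 and 715 bp in serum 9172. Width enters the rule, because a wider region can meet more peaks of any list, and its part in these differences was not tested. Matching on width as well as on Mll2 gave H3K4me3 ratios of 1.03 in replicate 1 and 0.923 in replicate 3. The share lacking Menin was lower in wider regions inside each Mll2 stratum. In the lowest stratum 22.1% of the narrowest regions lacked Menin (31 of 140) and 8.57% of the widest (12 of 140), and in stratum 4 the shares were 9.82% and 1.84%. By replicate 1 fold the shares from low to high were 16.4%, 16.4% and 17.1% in the lowest stratum, 10.3%, 10.7% and 7.11% in stratum 3, and 5.32%, 5.12% and 3.89% in stratum 4. In the highest stratum they were 1.36%, 0.367% and 0.131%, from 52, 14 and 5 regions without Menin. By width the shares there ran from 1.26% of the narrowest (48 regions) to 0.210% of the widest (8 regions). Replicate 3 fold gave no such order in the lowest stratum, at 13.6%, 22.9% and 13.6% from low to high. In the highest stratum it gave 1.47%, 0.210% and 0.184%.

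The Menin peaks of the regions of like Mll2, which were chosen for holding a called peak, had a median score of 197 and 61 tags, and a median of 18.9% of them scored under 100. In the lowest Mll2 stratum 29.4% (103 of 350) scored under 100. These scores come from the list the rule used and say nothing of the Menin signal in regions without a peak. Just inside the rule, the region nearest to Menin, on chromosome 14 from 76914677 to 76917272 (mm9), lay 18 bp from a Menin peak, at H3K4me3 folds of 18.3 and 20.5 and Mll2 folds of 11.2 and 13.7. Just outside it, the smallest overlap was 49 bp, at a region on chromosome 17 from 33959119 to 33963178 whose Menin peak had 31 tags.

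Called Menin was usually some distance away. The nearest Menin peak lay a median of 18816 bp from a region without Menin (quartiles 4380 and 65784 bp), against 7235 bp for the nearest Menin peak outside a region with Menin (1655.5 and 29281 bp), and 4160.5 bp at regions of like Mll2. Of the 351 regions 31 (8.83%) had a Menin peak within 1 kb, 133 (37.9%) within 10 kb and 279 (79.5%) within 100 kb. In regions with Menin the same shares for another Menin peak were 18.2%, 55.8% and 91.9%. Around a region without Menin 2 Menin peaks lay within 50 kb in the median, against 6 around its like regions. Of the 351, 105 had none (29.9%), and 16.2% of regions with Menin had no other Menin peak within 50 kb.

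The nearest Menin peak resembled Menin peaks at large in height. It had a median fold of 9.19 and a median score of 99.9, against 9.19 and 103 over all autosomal Menin peaks. In 202 of 351 cases (57.5%) it lay in another H3K4me3 region, where 43.6% of all autosomal Menin peaks lay. For the 31 regions with Menin within 1 kb the Menin peak overlapped no H3K4me3 peak of either library in 21 cases. Over all 351 regions that held for the nearest Menin peak in 124 (35.3%). The rule itself keeps these Menin peaks out of the H3K4me3 region beside them. No like count is given for regions with Menin, so these counts are not read as a trait of regions without Menin.

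Other H3K4me3 regions were also farther from these regions. Another H3K4me3 region lay a median of 29314 bp away (quartiles 9541 and 71853 bp), against 12338.5 bp at like regions, and 250 of 351 were farther from their neighbour than their like regions. The most remote lay on chromosome 2 from 97306271 to 97307621, with 3027763 bp to the nearest Menin peak and 2205430 bp to the nearest other H3K4me3 region. It had H3K4me3 folds of 21.9 and 14.1, and its Mll2 folds of 8.21 and 13.04 came from 36 and 61 tags (serum 9172 first here and below). On chromosome 14 from 113772005 to 113772982 a region lay 1667060 bp from Menin, with H3K4me3 folds of 29.1 and 12.3 and Mll2 folds of 10.4 and 13.9. Distance from Menin went with slightly stronger and narrower H3K4me3. The 105 regions over 50 kb from Menin had median H3K4me3 folds of 21.9 and 16.0 and were 1070 bp wide in the median. The 95 regions within 5 kb had medians of 15.9 and 11.1 and a width of 1388 bp. Serum 9175 tags per kb were 36.6 in the distant and 36.1 in the close regions, while serum 9172 gave 45.0 and 48.2. The quartile ranges of fold overlapped.

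**Figure D4:**
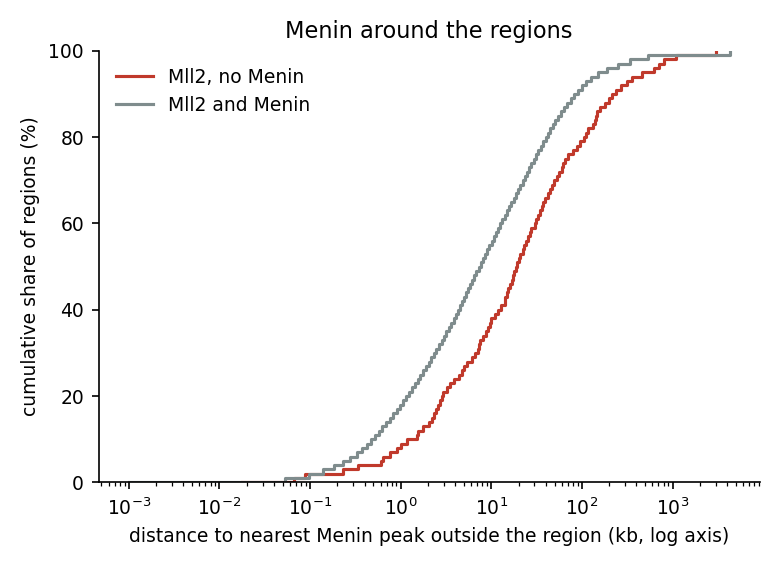
Cumulative share of regions (%) by distance to the nearest Menin peak that lies outside the region (kb, log axis), for regions without Menin and for regions with Menin. The curve of regions without Menin lies to the right over nearly the whole range, with medians of 18816 bp and 7235 bp.

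Some regions without Menin carried strong H3K4me3. In replicate 1, 52 of 351 (14.8%) reached a fold of 40, against 59.1% of all regions with both sera, and in replicate 3 27 did (7.69%, against 53.7%). The highest replicate 1 fold was 82.7, on chromosome 4 from 147221613 to 147223624, where replicate 3 gave 74.5, the Mll2 folds were 16.7 and 11.9, and Menin lay 17988 bp away. Its like regions with Menin had median H3K4me3 folds of 47.0 and 47.8. On chromosome 17 from 49566991 to 49568800 the H3K4me3 folds were 69.3 and 71.1, 134381 bp from Menin, while like regions had H3K4me3 medians of 15.2 and 11.8. Mll2 there was at 43.9 and 33.7 tags per kb, with folds of 6.71 and 10.6 from 20 and 38 tags. Here the mark was high in both libraries although Mll2 tags per kb lay in the lowest decile of all regions with both sera. The libraries did not always give the same rank. On chromosome 5 from 81984076 to 81985900 replicate 1 had a fold of 79.4 and replicate 3 of 30.3, and on chromosome 6 from 47730265 to 47732420 they had 75.9 and 17.8. Across the 351 regions H3K4me3 tags per kb of the 2 libraries had a rank correlation of 0.858, given as a description over regions that share those libraries.

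Other regions without Menin carried strong Mll2. The highest serum 9172 fold was on chromosome 6 from 13820128 to 13822801, with Mll2 folds of 35.1 and 30.2 from 94 and 63 tags and H3K4me3 folds of 41.8 and 45.2, at 30999 bp from Menin. Serum 9175 was highest on chromosome 2, at 39.94 both from 75775868 to 75777315, where serum 9172 gave 21.6 and H3K4me3 50.3 and 77.1, and from 152511777 to 152514203, where serum 9172 gave 13.4 and H3K4me3 49.9 and 37.8. A region on chromosome 10 from 30337050 to 30339154 had Mll2 folds of 29.7 and 29.3 and H3K4me3 folds of 41.1 and 71.4. One with a high serum 9175 fold and little mark in replicate 1 lay on chromosome 7 from 53604048 to 53604740. Its Mll2 folds of 11.9 and 22.8 came from only 28 and 38 tags. Its H3K4me3 folds were 5.29 and 12.2, against medians of 18.9 and 13.2 over all 351 regions. The sera ranked these regions less alike than they ranked regions with Menin, at a rank correlation of tags per kb of 0.513 over 351 regions without Menin and 0.853 over 14286 with Menin. Over the narrower Mll2 range of strata 1 to 4 the values were 0.271 without and 0.340 with Menin.

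Regions without Menin were found on all 19 autosomes, as 1.47% (chromosome 5) to 4.30% (chromosome 13) of the regions with both sera. On chromosome 13 there were 26 of 605 (interval 2.83 to 6.23%), and this count came partly from close neighbours. When regions without Menin no more than 250 kb apart were joined, 299 stood alone, 38 formed pairs, and only 3 groups held more, with 6, 5 and 3 members. The groups of 6 and 5 lay on chromosome 13, from 23409027 to 23850386 and from 21806631 to 22127908, and the group of 3 on chromosome 3 from 96040685 to 96078666. Outside the chromosome 13 stretches 15 of 549 regions of that chromosome lacked Menin (2.73%), and within them 11 of 56 (19.6%). Each stretch was drawn from the start of its first member to the end of its last. A higher share within was therefore set by that choice and is no result. The groups were noticed in the data and were given no test. As background, most replication-dependent histone genes of the mouse lie in clusters on chromosomes 13 and 3: by symbol, the RefSeq table of GRCm38.p6 places 53 of 67 histone genes on chromosome 13 and 10 on chromosome 3. These regions were not assigned to genes, because that table is of another build than the peak lists.

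Most of the 11 regions in the chromosome 13 groups had higher Mll2 folds than the median region without Menin, whereas the chromosome 3 group was mixed in Mll2 fold. H3K4me3 of the 14 grouped regions lay below that of like regions with 1 exception in each library. The exception was on chromosome 13 in replicate 1 and on chromosome 3 in replicate 3. Of the 14, 10 belonged to the highest Mll2 stratum, where they were 10 of 71 regions (14.1%). On chromosome 13 from 23642240 to 23644478 the Mll2 folds were 22.4 and 26.1, from 141 and 87 tags, and the H3K4me3 folds were 20.0 and 19.6, against medians of 60.4 and 65.04 in like regions with Menin. From 23848610 to 23850386 the Mll2 folds were 24.4 and 14.4 and the H3K4me3 folds 12.4 and 11.1, against 55.6 and 57.5 in like regions. From 21973253 to 21975914 the libraries differed, with 66.6 in replicate 1 and 23.2 in replicate 3, against 60.2 and 65.04. On chromosome 3 from 96040685 to 96042544 the Mll2 folds were 17.5 and 15.9 and the H3K4me3 folds 54.6 and 26.7. The other regions of that group had Mll2 folds near or below the medians over all 351 regions. By tags per kb the group's median was higher in serum 9172, at 72.6 against 47.3 over all 351 regions. In serum 9175 it was 36.2 against 35.9. From 96051128 to 96053317 the Mll2 folds were 9.31 and 5.89 and the H3K4me3 folds 25.2 and 25.4. From 96077312 to 96078666 the Mll2 folds were 9.16 and 6.64 and the H3K4me3 folds 19.4 and 17.3, against 20.1 and 15.0 in like regions. In each library 13 of the 14 lay below their like regions, at a median of 0.550 times in replicate 1 and 0.398 times in replicate 3. The other 337 regions without Menin were at 0.964 and 0.945 times.

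Neighbours that did hold Menin also had lower median H3K4me3 folds than the 52.5 and 52.2 of regions with Menin in the highest stratum. In the larger group's stretch 31 of 31 H3K4me3 regions carried Mll2 of both sera, and 21 of those up to the width limit held Menin. The median H3K4me3 folds there were 21.9 and 15.3 in the 6 regions without Menin and 26.7 and 24.3 in the 21 with Menin, with serum 9175 at 51.3 tags per kb without and 63.1 with Menin. In the second stretch the medians were 33.7 and 23.4 without Menin (5 regions) and 25.0 and 22.1 with Menin (24 regions). Menin peaks in the 2 stretches had a median score of 117 and a median fold of 10.1, where the highest Mll2 stratum as a whole had a median Menin score of 418. The groups' regions lay close to called Menin, between 75 and 12814 bp away (median 2470.5 bp), and 7 of the 14 held more than 1 peak of a serum, against 27 of all 351 (7.69%) and 10.8% of all regions with both sera.

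**Figure D5:**
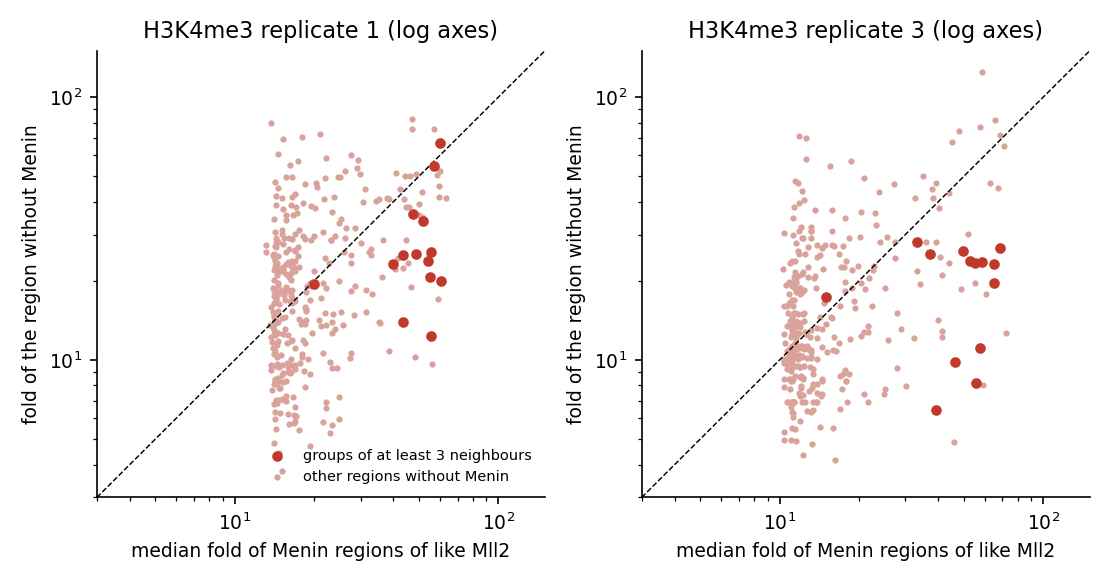
H3K4me3 fold of each region without Menin (vertical) against the median fold of the regions with Menin of like Mll2, within 10% in both sera (horizontal), in replicate 1 (left) and replicate 3 (right), on log axes with the line of equality dashed. Dark points are the 14 regions in groups of at least 3 neighbours, and 13 of them lie below the line in each library.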

How the data were processed

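ChIP-seq peak lists of 5 libraries were used: H3K4me3 replicates 1 and 3, Mll2 serum 9172, Mll2 serum 9175 and Menin. Per the file headers the authors called each library's peaks with MACS 1.4.2 against 1 input library, at a p cutoff of 1e-05 with 1 tag kept per position, and both Mll2 libraries used the same input. Per the submitters' processing notes the build is mm9. The tags the authors deposited for a peak are a raw count of ChIP tags. Fold enrichment, as deposited, is their ratio to the background MACS estimated, so a local background that differs between regions moves it. The deposited score is minus 10 times the log10 of p. The deposited false discovery rate, in percent, was not used. Keeping 1 tag per position can compress the strongest peaks. H3K4me3 replicates had 21936546 and 12277583 kept tags, the sera 19584961 and 13739094, and Menin 11550409.

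Where a region held several peaks of a list, the fold, score and summit are those of the peak with the highest fold. Regions, overlaps, distances (from one end to the nearest facing end) and strata were computed with Python 3.11.15, pandas 2.3.3 and scipy 1.17.1, and tested on simulated lists. Named regions follow a rule: the highest by H3K4me3 replicate 1, serum 9172 or serum 9175 fold, the farthest from and nearest to Menin, the widest and narrowest, and those just outside the limits; the text gives a selection. The grouped regions were picked out after their values were seen. The members, strata and alternatives were chosen with earlier results of these data known. No gene was assigned and no sequence printed, since the reference tables used here are of GRCm38.p6 and not mm9.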

Additional observations from a re-analysis of the deposited data

How the results depend on the processing

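Over 7 results, 86 alternative values were computed, and 66 stayed within an interval of the value reported over regions, used only as a tolerance, or, for counts, within 1.5 times. The 351 regions without Menin became 1157 when Menin peaks had to score 100 or more, 131 when Mll2 peaks had to, 575 with serum 9172 alone and 573 with serum 9175 alone, and 399 and 586 with one H3K4me3 library left out (replicate 1 and replicate 3). Their share of 2.4% became 7.90%, 1.01%, 3.78% and 3.68% under the first 4 settings, 1.81% when H3K4me3 peaks had to score 100 or more, and 2.62 to 3.61% with one H3K4me3 library left out. The median distance to Menin of 18816 bp became 26623 bp with Menin scores of at least 100, 39622 bp with Menin folds of at least 10, 9725 bp with Mll2 scores of at least 100, and 14849 to 15295 bp with one H3K4me3 library left out. Without matching on Mll2, H3K4me3 fold without Menin was 0.400 times that with Menin in replicate 1 and 0.295 times in replicate 3, and the width difference was -882 bp. The replicate 1 ratio of 0.873 was 0.684 without replicate 3, and 1.03 when width was matched as well, and the replicate 3 ratio of 0.800 was then 0.923. Joining neighbours at 500 kb in place of 250 kb, chosen after the data were seen, put 24 regions in place of 14 in groups of 3 or more. In each case the cause was not tested. Left-out libraries gave no ratio for their own H3K4me3. The depth of the Menin library limits which weak sites are called. No paired analysis was possible because H3K4me3 replicates 1 and 3 are of 1 group and Menin and each serum had 1 library.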

Other observations

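Outside the rule, H3K4me3 regions with Mll2 of both sera and no Menin peak were also found on chromosome X, which the rule leaves out, and above the width limit. On X 39 of 322 regions with both sera held no Menin peak (12.1%, interval 8.76 to 16.2%), against 2.4% on autosomes. Their median H3K4me3 folds were 57.7 in replicate 1 and 46.1 in replicate 3, against 18.9 and 13.2 in the 351 autosomal regions, and they were 1687 bp wide in the median, against 1215 bp on autosomes. Their median serum 9175 level was 35.3 tags per kb, against 35.9 on autosomes. Tags were not corrected for the number of X copies per cell, so close levels need not mean like Mll2. The share without a called Menin peak on X has the same limit.

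Only 5 autosomal regions with both sera and no Menin were wider than 5000 bp, and 2 of them lay in the larger chromosome 13 stretch. The one from 23661681 to 23669631 was 7951 bp wide, with Mll2 folds of 17.9 and 14.8 from 448 and 176 tags and H3K4me3 folds of 37.8 and 20.1. The other, from 23835076 to 23840078, had Mll2 folds of 27.8 and 15.5 and H3K4me3 folds of 21.4 and 26.1. The remaining 3, on chromosomes 3, 5 and 14, had serum 9172 folds of 5.21 to 8.33 and replicate 1 folds of 40.4 to 43.7.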
